A study of Mus musculus with 203 samples.

Results

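The genes described here are 10 genes of the NRF2 antioxidant response, chosen by symbol from the 43346 gene identifiers of a table of estimated counts: Nfe2l2, Keap1, Nqo1, Gclc, Gclm, Hmox1, Txnrd1, Srxn1, Slc7a11 and Osgin1. All 10 were found, and all 10 passed the filter on low counts at both time points. The libraries were total RNA from lungs of female Balb/C mice, labelled as 18-20 weeks old and split into airway and parenchyma, in 20 groups. Mice received house dust mite extract (HDM) or phosphate buffered saline (PBS) into the nose for 3 weeks (43 libraries, 10 to 12 per group). In the 16 groups of the 11-week arm (160 libraries, 10 each), HDM or PBS went on to week 11, mice breathed cigarette smoke (CS) or normal air (AIR) for the last 8 weeks, and separate groups had dexamethasone (DEX) in week 11. All groups were of the same strain, and PBS controls carried no other treatment than the one named. Airway and parenchyma were parted by blunt dissection and hold mixtures of cells. Because the tissue was measured in bulk, fewer cells of a type and less RNA per cell cannot be told apart in any value below.

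NRF2, encoded by Nfe2l2, is a transcription factor that KEAP1 holds in the cytoplasm and delivers to the proteasome. Electrophiles and oxidants, both plentiful in cigarette smoke, modify KEAP1, and NRF2 then accumulates, pairs with small MAF proteins and binds antioxidant response elements near its target genes. Much of this control acts on the protein, so the Nfe2l2 mRNA need not follow NRF2 activity. Among the targets, NQO1 reduces quinones, GCLC and GCLM form the enzyme that starts glutathione synthesis, SLC7A11 imports the cystine that this synthesis needs, TXNRD1 and SRXN1 recharge thioredoxin and oxidised peroxiredoxins, HMOX1 degrades haem, and OSGIN1 is an oxidative stress response protein. Several targets answer to other regulators too: Nqo1 to the aryl hydrocarbon receptor (AHR), which senses components of smoke, Slc7a11 to ATF4, and Hmox1 to BACH1 and haem.

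Levels are normalised CPM, the counts of a gene scaled to the total and the composition of its library, and p-values are from limma-voom with Benjamini-Hochberg adjustment over all genes tested (18250 at 11 weeks, 17381 at 3 weeks). A gene passed at an adjusted p under 0.05. Total counts per library ran from 13003087 to 40240680, with a median of 28090612, and the lowest was a parenchyma library of the HDM, AIR and DEX group. Nothing in the labels pairs airway and parenchyma libraries of a mouse, or says how libraries share mice, so the p-values measure the spread between these libraries. Comparisons within a tissue share their control libraries. In the PBS and AIR groups the tissue labels held: Foxj1 of ciliated cells had a median of 195.1 CPM in airway and 48.28 in parenchyma, and Ager of alveolar type 1 cells 1260 and 2699, although the airway libraries still held Ager and Sftpc and so alveolar tissue.

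Without HDM, smoke or DEX, the sensor pair and the glutathione genes were already well expressed. Per kilobase of exon, median levels in the airway of the PBS and AIR group were 51.42 CPM for Nfe2l2 (chromosome 2, 75675513 to 75704641), 34.76 for Gclc (chromosome 9, 77754535 to 77794485), 18.13 for Hmox1 (chromosome 8, 75093621 to 75100589) and 11.32 for Keap1 (chromosome 9, 21229730 to 21239361). Gclm (chromosome 3, 122245557 to 122270732) and Txnrd1 (chromosome 10, 82833951 to 82897712) each stood at 11.84, Srxn1 (chromosome 2, 152105516 to 152111376) at 10.48 and Osgin1 (chromosome 8, 119434124 to 119446256) at 8.187. Nqo1 (chromosome 8, 107388225 to 107403206) at 5.448 and Slc7a11 (chromosome 3, 49892526 to 50443614) at 0.4362 were the least abundant of the 10 per length, and they were the pair with the largest smoke differences in PBS mice. Positions are those of whole genes in GRCm38 (mm10) from GENCODE M21. Exons of Keap1 overlap the antisense gene Gm16754, and exons of Gclm overlap Gm17494 on the other strand and the pseudogene Gm6061, so that counts of Keap1 and Gclm may hold reads of these.

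The promoters of 4 genes are shown because they differed in behaviour. Srxn1 and Slc7a11 rose with HDM and, in PBS mice, with smoke. Nqo1 rose with smoke and fell with HDM in airway and, at 3 weeks, in parenchyma. Gclm did not pass for smoke in PBS mice without DEX and fell with HDM in airway. Each promoter is the stretch of 250 bases before the RefSeq start site in GRCm38.p6, 5′ to 3′ on the strand of the gene. Capitals mark letters that match TGACNNNGC, TGAGNNNGC or TGACTCA on either strand. The first spells the core of an antioxidant response element, the second the same core with G in place of its C, and the third, which reads TGAGTCA on the other strand and can overlap the second, is the element of AP-1.
Srxn1, chr2:152105274-152105523, plus strand: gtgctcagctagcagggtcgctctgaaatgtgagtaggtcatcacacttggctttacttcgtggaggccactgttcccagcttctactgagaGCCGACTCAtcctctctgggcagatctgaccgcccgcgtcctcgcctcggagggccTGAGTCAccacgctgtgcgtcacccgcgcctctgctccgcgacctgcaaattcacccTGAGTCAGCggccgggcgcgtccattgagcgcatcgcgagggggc
Gclm, chr3:122245307-122245556, plus strand: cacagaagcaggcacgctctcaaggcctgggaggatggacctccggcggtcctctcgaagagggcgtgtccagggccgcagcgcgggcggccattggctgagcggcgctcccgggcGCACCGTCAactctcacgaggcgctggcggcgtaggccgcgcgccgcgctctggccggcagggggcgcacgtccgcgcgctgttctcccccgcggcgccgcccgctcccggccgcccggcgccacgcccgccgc
Slc7a11, chr3:50443614-50443863, minus strand: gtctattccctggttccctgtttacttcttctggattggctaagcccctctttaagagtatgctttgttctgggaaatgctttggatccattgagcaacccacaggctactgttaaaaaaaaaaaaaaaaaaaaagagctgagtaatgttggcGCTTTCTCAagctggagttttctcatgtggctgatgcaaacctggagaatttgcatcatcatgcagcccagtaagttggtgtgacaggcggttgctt
Nqo1, chr8:107403206-107403455, minus strand: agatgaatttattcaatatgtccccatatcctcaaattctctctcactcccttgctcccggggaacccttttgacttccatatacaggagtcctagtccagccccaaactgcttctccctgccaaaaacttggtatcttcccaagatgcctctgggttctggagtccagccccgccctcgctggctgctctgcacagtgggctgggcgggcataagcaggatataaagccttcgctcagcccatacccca
Srxn1 held 3 capitalised stretches, in 1 of which TGAGNNNGC and TGACTCA overlap. Gclm and Slc7a11 held 1 each, and none of the 3 motifs was found in the Nqo1 stretch. In windows that reach 50 bases past the start, known for 8 of the 10 genes, TGACNNNGC or TGAGNNNGC matched in Nfe2l2, Gclm, Srxn1, Slc7a11, Osgin1 and 1 of the 3 Txnrd1 windows, and in 27.8% of all 32851 RefSeq mouse windows. TGACTCA was in 5.2% of all windows, and among these genes in Srxn1 and Osgin1. The AHR core TNGCGTG, in 5.07% of all windows, was in none of those of the 8 genes. Such matches describe letters and do not show binding.

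The first question was what smoke alone did to the response. In the airway of PBS mice without DEX, smoke raised 6 of the 10 genes, Nqo1, Slc7a11, Hmox1, Srxn1, Gclc and Txnrd1, and the median log2 difference of the 10 was 0.42 against 0.002 over all genes. Of all genes tested, 7.66% rose and 6.03% fell. Nqo1 ranged from 6.964 to 11.51 CPM in air (median 8.46) and from 12.58 to 156.1 in smoke (median 29.96). Every smoke library lay above every air library, with a 4.56-fold difference (log2 2.19, SE 0.32, adjusted p = 4.1e-08, limma-voom). Slc7a11 ranged from 3.677 to 11.46 CPM in air (median 6.072) and from 11.02 to 34.62 in smoke (median 28.11). All but 1 of the 10 smoke libraries exceeded every air library, a 4.07-fold difference (log2 2.03, SE 0.26, adjusted p = 6.2e-10, limma-voom).

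The other genes that rose in airway did so by much less, with overlap between the groups. Srxn1 spanned 25.32 to 37.06 CPM in air and 33.2 to 51.25 in smoke (log2 0.47, SE 0.09, adjusted p = 4.5e-05). Gclc spanned 106.8 to 144.1 CPM in air and 114.3 to 252.2 in smoke (log2 0.46, SE 0.11, adjusted p = 0.0018), and Txnrd1 77.07 to 96.71 and 84.17 to 155.2 (log2 0.39, SE 0.07, adjusted p = 7.9e-06). In each of these, 7 of 10 smoke libraries lay above all air libraries. Hmox1, at 24.7 to 40.23 CPM in air and 33.38 to 64.58 in smoke, passed narrowly (log2 0.6, SE 0.21, adjusted p = 0.036), and did not pass when genes of low count were kept (adjusted p = 0.12). Gclm, the modifier subunit that partners GCLC, had a log2 difference of 0.15 (95% interval 0.01 to 0.28, adjusted p = 0.16) and Osgin1 one of -0.15 (-0.37 to 0.06, adjusted p = 0.4).

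**Figure D1:**
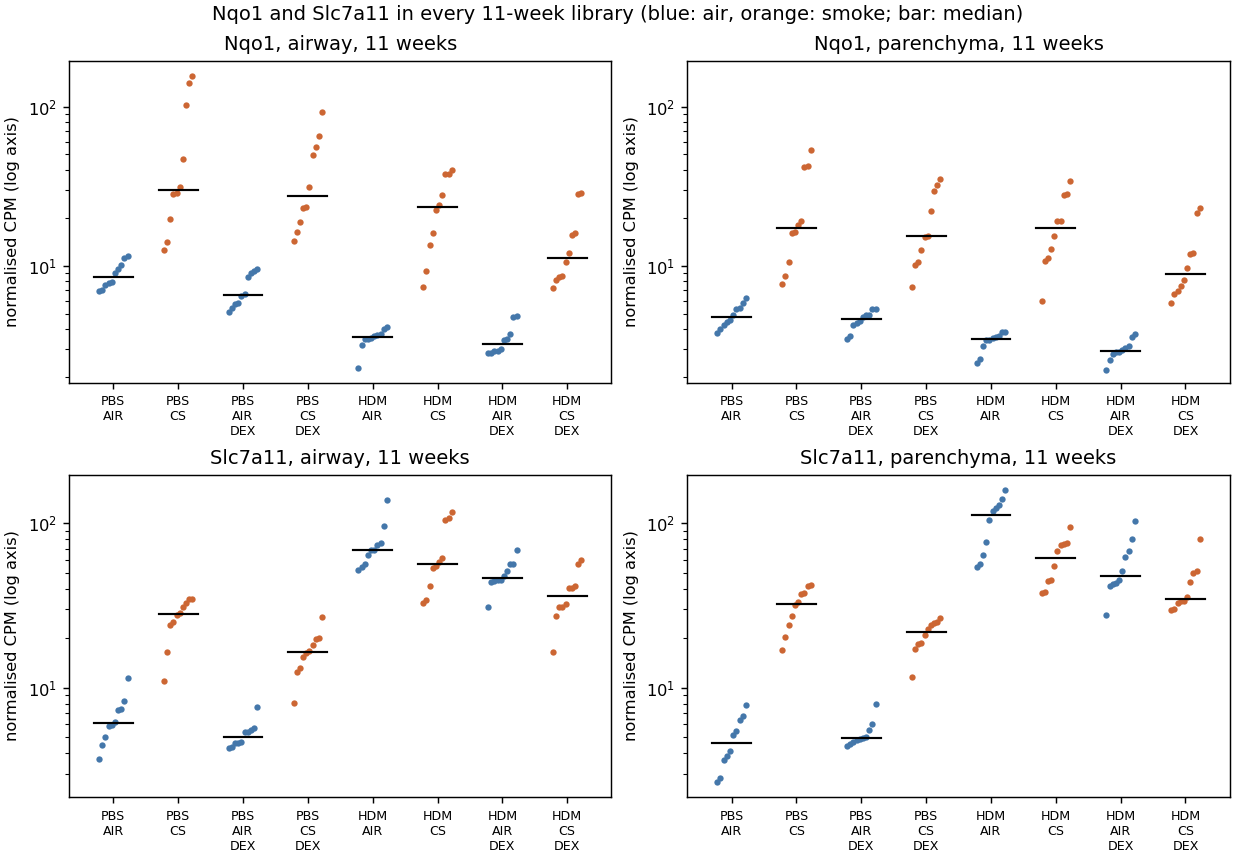
Normalised CPM (log axis) of Nqo1 and Slc7a11 in every 11-week library, by tissue and group, with blue points for air, orange points for smoke and bars at the group median. Nqo1 was higher in all smoke groups, with a median of 29.96 against 8.46 in the airway of PBS mice, whereas Slc7a11 rose with smoke in PBS mice and was already at 69.18 in the airway of HDM mice in air.

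Smoke raised the same 6 genes in the parenchyma of PBS mice. The median log2 difference of the 10 was 0.67 against 0.0 over all genes, and 17.7% of all genes rose and 18.2% fell. Slc7a11 went from 2.66 to 7.894 CPM in air (median 4.62) to 17.0 to 42 in smoke (median 32.54), a 6.52-fold difference (log2 2.7, SE 0.3, adjusted p = 4.6e-14, limma-voom). Nqo1 lay at 3.81 to 6.32 CPM in air (median 4.747) and 7.674 to 53.32 in smoke (median 17.15; log2 1.97, SE 0.41, adjusted p = 3.5e-05). The 95% intervals of these differences overlapped, at 2.12 to 3.28 for Slc7a11 and 1.17 to 2.76 for Nqo1, whose smoke libraries spread more widely.

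Hmox1 in parenchyma went from a median of 32.64 CPM (28.9 to 36.25) to 57.61 (39.63 to 78.17), with a log2 difference of 0.85 (SE 0.21, adjusted p = 0.00051). Srxn1 went from 25.62 (20.83 to 29.06) to 41.54 (32.35 to 46.36), log2 0.72 (SE 0.1, adjusted p = 2.5e-10), and Gclc from 97.06 to 128.8 CPM to 132.1 to 223.2, log2 0.71 (SE 0.11, adjusted p = 6e-08). Txnrd1, the cytosolic thioredoxin reductase, had the smallest of these differences and the smallest error (median 69.92 to 111.3, log2 0.63, SE 0.07, adjusted p = 1.2e-13). The pair of glutamate-cysteine ligase genes parted: Gclc rose while Gclm had a log2 difference of 0.13 (95% interval 0 to 0.27, adjusted p = 0.13). Differences in parenchyma did not pass a test against those in airway for any of the 10 genes. That test, airway less parenchyma, was passed by 3.73% of all genes, by 1 of the 10 at an unadjusted p under 0.05, and by 0 of the 10 in limma-voom, edgeR and DESeq2 alike (Slc7a11 -0.68, 95% interval -1.46 to 0.1).

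Markers of macrophages and neutrophils moved along with smoke in PBS mice. The sum of 14 macrophage genes ran from 1951 to 3286 CPM in air and 2624 to 4240 in smoke in airway, and from 2492 to 2843 and 4063 to 4776 in parenchyma, with 10 and 11 of the 14 genes higher and 1 lower in parenchyma. Of 7 neutrophil genes, 7 rose in airway, where their sum had a median of 104.3 CPM in air and 283.4 in smoke, and 6 in parenchyma (234.8 and 559.9). Of all genes, 7.66% rose in airway and 17.7% in parenchyma, and 6.03% and 18.2% fell. The macrophage genes Cd68, Marco, Gpnmb and Mmp12 were above 0 in every library, with a lowest value of 2.593 CPM. Whether these cells carried the antioxidant genes was not tested.

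Smoke gave a different picture in mice that had HDM for all 11 weeks. In their airway, Nqo1 and Gclm rose, 2 of the 10 genes, where 6.07% of all genes rose and 10.1% fell. In their parenchyma Nqo1 rose and Hmox1, Srxn1 and Slc7a11 fell, where 10.0% of all genes rose and 14.1% fell. Nqo1 lay at 2.274 to 4.136 CPM in air (median 3.562) and 7.327 to 40.19 in smoke (median 23.26) in airway, and at 2.451 to 3.842 (median 3.486) and 5.969 to 34.31 (median 17.19) in parenchyma. Smoke and air did not overlap in either tissue, with a 5.79-fold difference in airway (log2 2.53, SE 0.43, adjusted p = 3.4e-06) and a 4.87-fold one in parenchyma (log2 2.29, SE 0.45, adjusted p = 2.5e-05). Gclm had an airway log2 difference of 0.21 (SE 0.07, adjusted p = 0.024), which did not pass with each tissue in its own fit (adjusted p = 0.091).

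Slc7a11 was the clearest contrast to Nqo1. In the parenchyma of HDM mice it stood at 54.48 to 160.1 CPM in air (median 111.7) and at 37.93 to 94.97 in smoke (median 61.76), a log2 fold change of -0.74 (SE 0.19, adjusted p = 0.0013). Hmox1 stood at 119.1 to 400.8 CPM in air (median 211.2) and 55.36 to 208.3 in smoke (median 101.3), a log2 fold change of -0.97 (SE 0.21, adjusted p = 0.00016). Srxn1 had a median of 54.32 CPM in air and 42.43 in smoke (log2 -0.28, SE 0.09, adjusted p = 0.016). Groups overlapped for all 3, with 8 of 10 smoke libraries below every air library for Hmox1, 4 for Slc7a11 and 1 for Srxn1. In airway the same genes had log2 differences of -0.27 (Slc7a11, adjusted p = 0.35), -0.35 (Hmox1, adjusted p = 0.27) and -0.03 (Srxn1, adjusted p = 0.88).

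**Figure D2:**
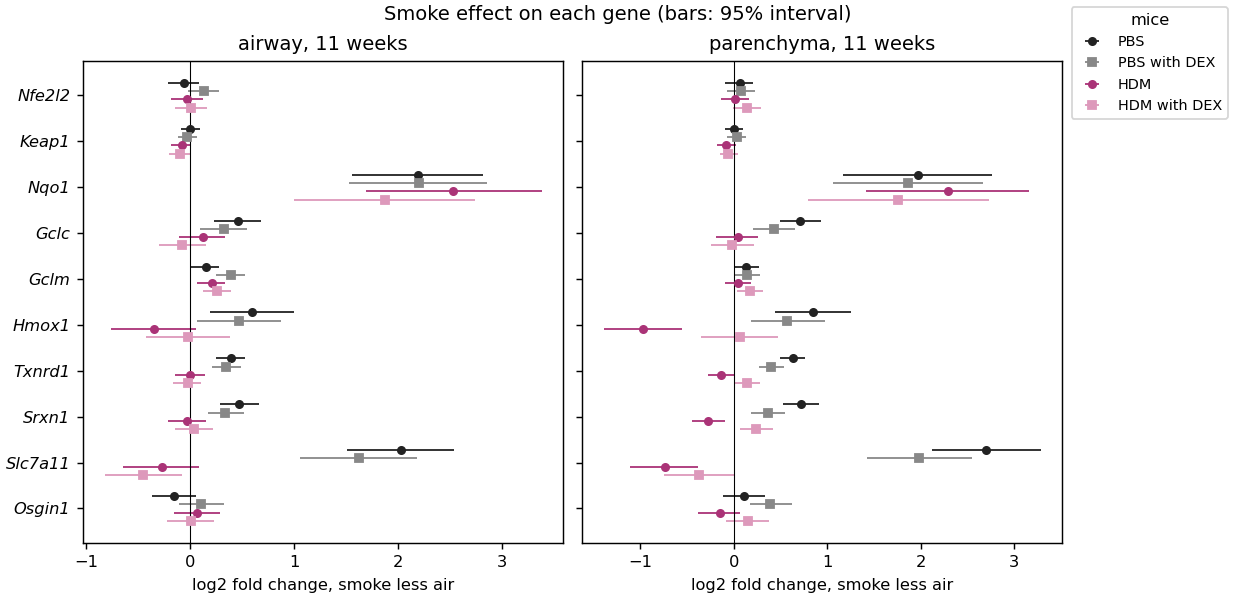
Log2 fold change of smoke against air for each of the 10 genes, in airway and parenchyma at 11 weeks, with 95% intervals as bars and separate points for PBS and HDM mice with and without DEX. Nqo1 lies to the right of 0 in all 8 comparisons, between 1.76 and 2.53, while Slc7a11 lies between 1.62 and 2.7 in PBS mice and between -0.74 and -0.27 in HDM mice.

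The difference between HDM and PBS mice in the smoke response was tested itself. In airway 4 of the 10 genes passed, all with a lower smoke response in HDM mice, where 11.4% of all genes were lower and 7.72% higher: Slc7a11 (-2.3, SE 0.32, adjusted p = 3.3e-08), Hmox1 (-0.95, SE 0.29, adjusted p = 0.014), Srxn1 (-0.5, SE 0.13, adjusted p = 0.0026) and Txnrd1 (-0.39, SE 0.1, adjusted p = 0.0023). In parenchyma 5 of the 10 passed, again lower, where 18.7% of all genes were lower and 17.3% higher: Slc7a11 (-3.45, SE 0.35, adjusted p = 2.7e-15), Hmox1 (-1.82, SE 0.3, adjusted p = 1.6e-07), Srxn1 (-1.0, SE 0.13, adjusted p = 2.5e-10), Txnrd1 (-0.77, SE 0.1, adjusted p = 1.1e-10) and Gclc (-0.67, SE 0.16, adjusted p = 0.0003). For Nqo1 the difference was 0.35 in airway (95% interval -0.71 to 1.4) and 0.32 in parenchyma (-0.86 to 1.5), so that the data bound it only loosely. Between the tissues, the smoke response of HDM mice had 0 of the 10 genes past the test in limma-voom, edgeR and DESeq2, with 1 at an unadjusted p under 0.05. Of all genes 0% passed it, with 326 at an unadjusted p under 0.05, 64 in edgeR and 69 in DESeq2.

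Without smoke or DEX, HDM by itself raised some genes of the set and lowered others. After 3 weeks of HDM, without smoke, 5 of the 10 genes were higher in airway and 3 lower, where 34.1% of all genes rose and 40.5% fell. Slc7a11 went from 4.165 to 15.22 CPM in 11 PBS libraries (median 8.498) to 31.1 to 178.4 in 10 HDM libraries (median 110.5), with no overlap and a 10.17-fold difference (log2 3.35, SE 0.26, adjusted p = 1.2e-14). Hmox1 went from a median of 29.53 CPM (20.83 to 55.06) to between 74.74 and 260.6, again without overlap (log2 2.17, SE 0.18, adjusted p = 3.4e-14). Gclc rose by 0.95, Txnrd1 by 0.62 and Srxn1 by 0.54 on the log2 scale.

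Nqo1 went the other way. In airway at 3 weeks it lay at 8.233 to 14.28 CPM with PBS and at 2.179 to 5.97 with HDM, with every HDM library below every PBS library (log2 -1.69, SE 0.15, adjusted p = 2.9e-13). Gclm (log2 -0.42, adjusted p = 3.5e-08) and Nfe2l2 itself (-0.21, adjusted p = 0.0045) were also lower. In parenchyma at 3 weeks 6 genes were higher and Nqo1 was lower (log2 -1.11, SE 0.17, adjusted p = 1.5e-07), where 33.4% of all genes rose and 44.3% fell and the median of all genes lay at -0.127 under this scaling and at -0.037 under DESeq2 size factors. Slc7a11 there went from 2.883 to 9.159 CPM (median 6.434, n = 12) to a median of 158.6 with a highest value of 224.9 (n = 10) and no overlap, a 24.32-fold difference (log2 4.6, SE 0.3, adjusted p = 2e-17). The other genes higher were Hmox1 (2.96), Srxn1 (1.31), Gclc (1.19), Txnrd1 (0.92) and Osgin1 (0.62) on the log2 scale.

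Most of this was still present at 11 weeks in air. In airway 5 genes were higher with HDM and 2 lower, where 31.3% of all genes rose and 29.8% fell, and in parenchyma 5 were higher, where 32.6% rose and 26.9% fell. Slc7a11 was 11.7-fold higher in airway (log2 3.55, SE 0.26, adjusted p = 3.1e-26) and 21.4-fold higher in parenchyma (log2 4.42, SE 0.29, adjusted p = 1e-29). Hmox1 was higher by 2.32 and 2.66, Srxn1 by 0.56 and 1.1, Txnrd1 by 0.31 and 0.72 and Gclc by 0.29 and 0.71 in airway and parenchyma on the log2 scale. Nqo1 was lower in airway, with no overlap between 6.964 to 11.51 CPM with PBS and 2.274 to 4.136 with HDM (log2 -1.3, SE 0.47, adjusted p = 0.011, or 0.081 when genes under 10 CPM were left out), and had a log2 difference of -0.51 in parenchyma (95% interval -1.53 to 0.5). Gclm was lower in airway (log2 -0.37, SE 0.07, adjusted p = 1e-06) and had a difference of 0.13 in parenchyma (adjusted p = 0.11).

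**Figure D3:**
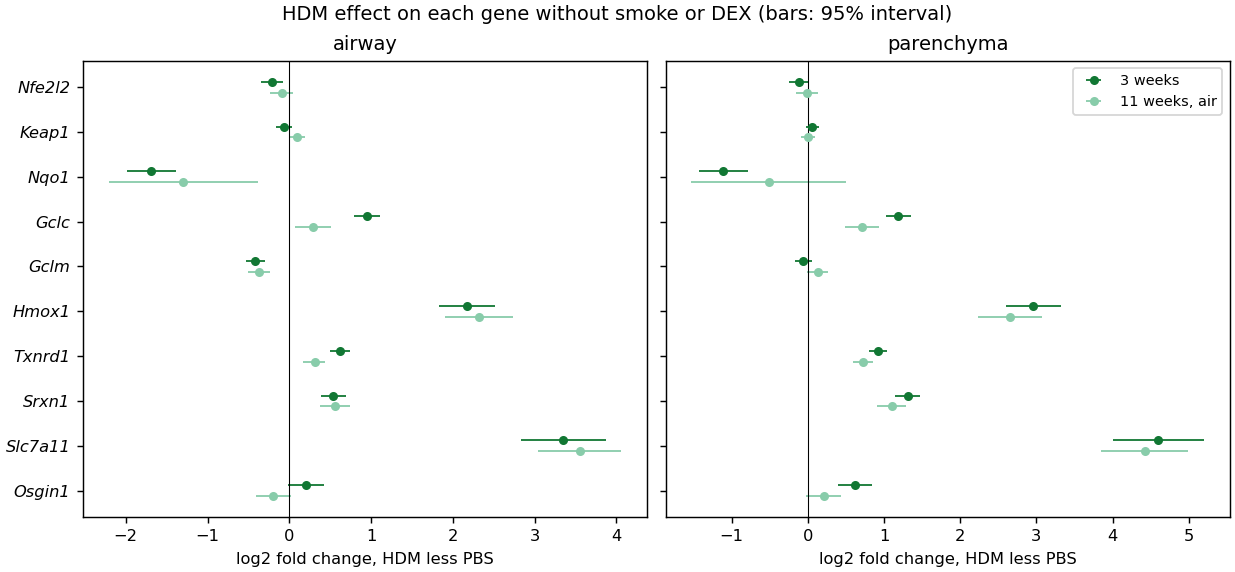
Log2 fold change of HDM against PBS for each of the 10 genes without smoke or DEX, at 3 weeks and at 11 weeks in air, with 95% intervals as bars. Slc7a11 and Hmox1 lie far to the right in both tissues (from 2.17 to 4.6), and Nqo1 lies to the left of 0 in airway at both times (-1.69 and -1.3).

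Cell markers moved with HDM as well. The macrophage sum in air at 11 weeks had a median of 4669 CPM in airway and 6343 in parenchyma of HDM mice, against 2229 and 2733 with PBS. Mmp12 of that list had medians of 1467 and 2294 with HDM, against 26.75 and 33.98 with PBS, a large part of the difference. Cd68 and Gpnmb also had higher medians, whereas those of Marco were lower, at 9.941 and 12.48 against 17.44 and 20.83. In HDM mice with smoke the sum had medians of 4714 and 5696, where 2 macrophage genes of 14 rose in airway and 3 rose and 1 fell in parenchyma. The sum of 7 neutrophil genes in air had airway and parenchyma medians of 620.0 and 728.5 CPM with HDM, against 104.3 and 234.8 with PBS. The summed level of 5 club cell genes, which mark secretory epithelium, ran in airway from 43200 to 67160 CPM with PBS and from 11300 to 32450 with HDM, in the direction of Nqo1 and Gclm. Other sums moved down as well, that of 6 ciliated cell genes in airway from a median of 1239 to 701.1 CPM, that of 5 alveolar type 1 genes in parenchyma from 4308 to 2363, and the erythroid sum from 5899 to 1692 in airway and from 11750 to 3779 in parenchyma, the last against the direction of Hmox1. All 5 erythroid genes rose with smoke in both tissues of HDM mice. With smoke, 3 of the 5 club cell genes rose in airway and 5 in parenchyma of HDM mice, and in PBS mice 1 fell in airway and 4 rose in parenchyma. Of all genes, smoke raised 6.07% in airway and 10.0% in parenchyma of HDM mice and lowered 10.1% and 14.1%. In PBS mice it raised 7.66% and 17.7% and lowered 6.03% and 18.2%. The sum of 5 heart muscle genes varied between 274.8 and 3299 CPM over airway libraries of PBS mice in air. The part of any of these in the gene differences was not tested.

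With dexamethasone, a glucocorticoid, Nqo1 still rose with smoke. In PBS mice with DEX, Nqo1 spanned 5.135 to 9.507 CPM in air and 14.38 to 93.02 in smoke in airway (log2 2.2, SE 0.34, adjusted p = 5.6e-07), and 3.484 to 5.345 and 7.401 to 35.02 in parenchyma (log2 1.86, SE 0.41, adjusted p = 0.00031). In HDM mice with DEX it spanned 2.819 to 4.822 and 7.212 to 28.54 in airway (log2 1.87, SE 0.45, adjusted p = 0.0049, or 0.058 without genes under 10 CPM), and 2.232 to 3.72 and 5.838 to 22.98 in parenchyma (log2 1.76, SE 0.49, adjusted p = 0.012, or 0.12 without genes under 10 CPM). In all 8 smoke comparisons, then, every smoke library exceeded every air library for Nqo1. In HDM mice with smoke its median was lower with DEX, at 11.23 CPM against 23.26 in airway and 8.919 against 17.19 in parenchyma. Neither of these DEX differences passed in limma-voom.

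Across the set under DEX, smoke raised 5 genes in the airway of PBS mice, where 2.26% of all genes rose and 1.67% fell, and 7 in their parenchyma, where 9.32% rose and 8.93% fell. The 5 were Nqo1, Slc7a11 (log2 1.62, SE 0.28), Gclm (0.39, SE 0.07), Txnrd1 (0.35, SE 0.07) and Srxn1 (0.34, SE 0.09). The 7 were Nqo1, Slc7a11 (1.98, SE 0.29), Hmox1 (0.57, SE 0.2, not passed under 2 alternatives, with adjusted p of 0.053 and 0.079), Gclc (0.43, SE 0.11), Txnrd1 (0.4, SE 0.07), Osgin1 (0.39, SE 0.12) and Srxn1 (0.36, SE 0.09). In HDM mice with DEX, smoke raised Nqo1 and Gclm (0.26, SE 0.07, adjusted p = 0.015, or 0.076 with each tissue in its own fit) in airway, where 1.73% rose and 3.23% fell, and Nqo1 in parenchyma, where 4.11% rose and 5.58% fell.

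Tested directly, the smoke response differed with DEX for Hmox1 (1.03, SE 0.3, adjusted p = 0.019) and Srxn1 (0.52, SE 0.13, adjusted p = 0.0064) in the parenchyma of HDM mice, a contrast that 5.67% of all genes passed. Both fell with smoke without DEX and had log2 differences of 0.06 and 0.24 with it. The medians in smoke were close with and without DEX, at 110.9 and 101.3 CPM for Hmox1 and 42.15 and 42.43 for Srxn1. Those in air were 110.7 and 211.2 for Hmox1 and 35.48 and 54.32 for Srxn1. The other 3 contrasts of this kind had 0 of the 10 genes past the test in limma-voom, edgeR and DESeq2: airway of PBS mice (0.0822% of all genes, 1 of the 10 at an unadjusted p under 0.05), airway of HDM mice (0.334%, 0 of the 10) and parenchyma of PBS mice (3.22%, 2 of the 10). For Nqo1 these intervals ran from -0.91 to 0.93, -1.88 to 0.55 and -1.24 to 1.02.

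**Figure D4:**
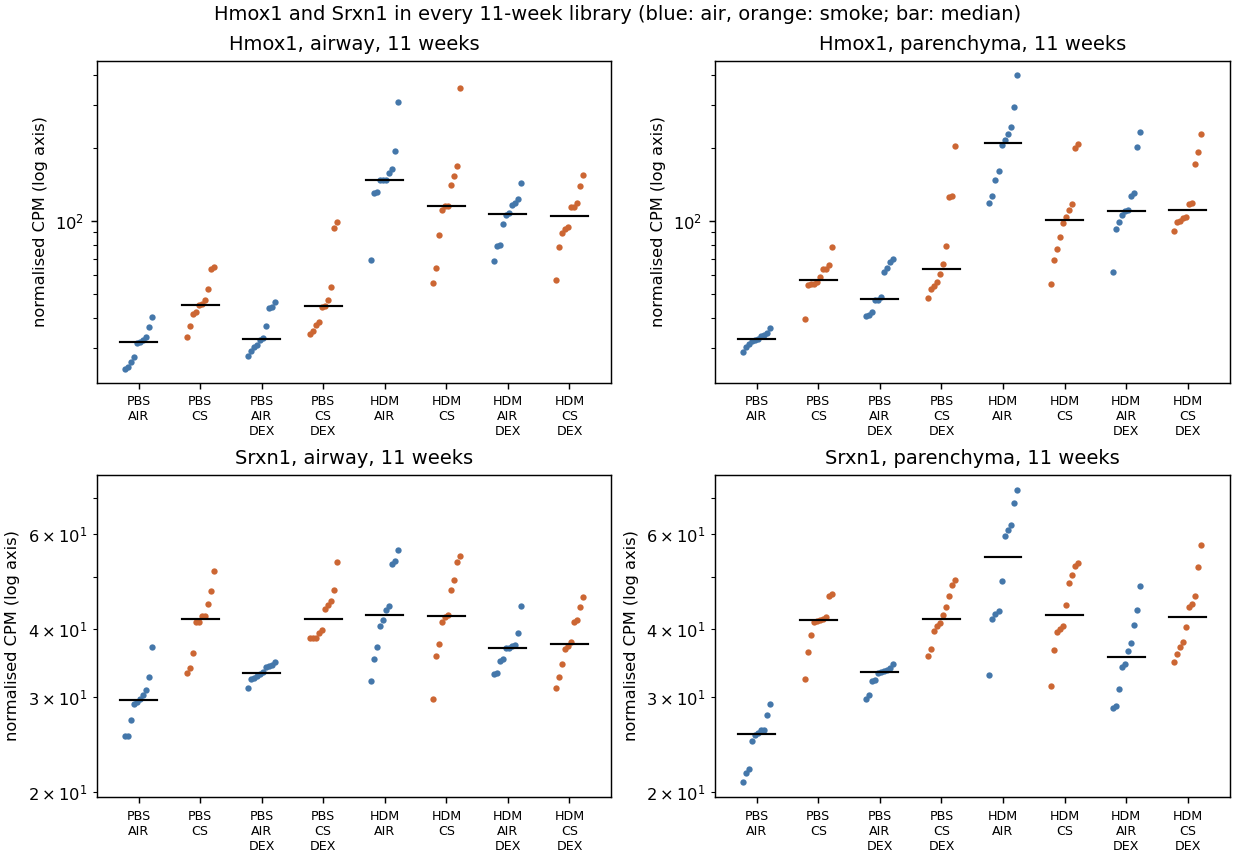
Normalised CPM (log axis) of Hmox1 and Srxn1 in every 11-week library, by tissue and group, with blue points for air, orange points for smoke and bars at the group median. In parenchyma the Hmox1 median rises with smoke in PBS mice (32.64 to 57.61) and falls with smoke in HDM mice without DEX (211.2 to 101.3). HDM mice in air with DEX have a median of 110.7.

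In HDM mice in air, genes of the set that changed with DEX were lower. In their parenchyma Slc7a11 went from a median of 111.7 CPM to 47.99 (27.67 to 103.3; log2 -0.91, SE 0.19, adjusted p = 6.3e-05), Hmox1 from 211.2 to 110.7 (61.76 to 234.3; log2 -0.75, SE 0.21, adjusted p = 0.0035) and Srxn1 from 54.32 to 35.48 (28.61 to 47.98; log2 -0.55, SE 0.09, adjusted p = 7.3e-07). These were 3 of the 10 genes, where 28.5% of all genes passed, and 5 passed without the library of lowest depth. In their airway the same 3 passed, where 28.6% of all genes did: Slc7a11 (-0.58, SE 0.19, adjusted p = 0.011), Hmox1 (-0.57, SE 0.21, adjusted p = 0.029) and Srxn1 (-0.23, SE 0.09, adjusted p = 0.047, and up to 0.087 under alternatives). Slc7a11 in HDM mice with DEX stayed well above PBS mice in air without DEX, whose medians were 6.072 CPM in airway and 4.62 in parenchyma. Hmox1 had airway and parenchyma medians of 107.5 and 110.7 in HDM mice with DEX, against 32.73 and 48.01 in PBS mice with DEX. Srxn1 lay closer, at 36.91 and 35.48 against 33.14 and 33.26, with overlap between these groups.

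In PBS mice in air, DEX moved genes of the set upward in parenchyma. Gclc, at 97.06 to 128.8 CPM without DEX, had a median of 151.7 and a highest value of 205.4 with it (log2 0.53, SE 0.11, adjusted p = 9.1e-05). Hmox1 lay at 28.9 to 36.25 CPM without DEX and 40.91 to 70.26 with it (log2 0.69, SE 0.21, adjusted p = 0.0081). Srxn1 lay at 20.83 to 29.06 and 29.7 to 34.48 (log2 0.41, SE 0.1, adjusted p = 0.00056). With Txnrd1 (log2 0.31, SE 0.07, adjusted p = 0.00027), 4 of the 10 passed, where 22.6% of all genes did. In airway of the same mice Gclm was lower with DEX (log2 -0.25, SE 0.07, adjusted p = 0.0051), 1 of the 10 where 14.9% of all genes passed. With smoke, Slc7a11 was lower with DEX in airway of PBS mice (-0.65, SE 0.21, adjusted p = 0.029, or 0.059 with genes of low count kept) and of HDM mice (-0.76, SE 0.19, adjusted p = 0.0027), 1 of the 10 in each, where 11.3% and 9.30% of all genes passed.

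In parenchyma with smoke, DEX moved 0 of the 10 genes past the test in limma-voom in PBS mice (16.9% of all genes) and in HDM mice (7.86%). At an unadjusted p under 0.05 there were 3 and 2, edgeR passed 1 and 0, and DESeq2 2 and 0. The differences for Slc7a11 were -0.54 (95% interval -0.94 to -0.13) and -0.53 (-0.91 to -0.16). Of 6 genes that glucocorticoids usually induce, Sgk1 was higher with DEX in parenchyma of PBS mice in air (log2 0.34, adjusted p = 0.02) and in airway (0.42, adjusted p = 0.0029) and parenchyma (0.36, adjusted p = 0.014) of HDM mice in air. Fkbp5, with log2 differences between -0.12 and 0.19 over the 8 DEX comparisons, and Mt2, between -0.09 and 0.6, did not pass, while Tsc22d3, Per1 and Zbtb16 were lower with DEX in PBS mice in air in both tissues. In parenchyma of PBS mice in air, where DEX raised Hmox1, the sum of 5 erythroid genes ran from 5412 to 27000 CPM without DEX and from 843.1 to 5054 with it, and that of 7 alveolar type 2 genes from 20740 to 32820 and from 33430 to 40620. In parenchyma of HDM mice in air, where DEX lowered Hmox1, the erythroid sums were 1473 to 7374 and 149.2 to 1737. The part of these sums in the Hmox1 differences was not tested. Of the 14 macrophage and 7 neutrophil genes, DEX raised 5 and 5 and lowered 2 macrophage genes in parenchyma of PBS mice in air, and in that of HDM mice in air it raised 2 macrophage genes and lowered 5 macrophage genes and 1 neutrophil gene. Of all genes, 22.6% passed in the former contrast and 28.5% in the latter, in either direction. Cyp1a1, an AHR target, had a median of 13.39 CPM in the airway of HDM mice in air with DEX and 1.249 without, so DEX groups differed in a smoke-responsive gene without smoke; what caused this was not tested.

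Between the tissues without exposure, 4 of the 10 genes differed at 11 weeks, where 56.4% of all genes did, and 6 of the 10 passed in edgeR and in DESeq2. Gclm was higher in airway, at 56.32 to 84.85 CPM against 46.05 to 54.39 in parenchyma, without overlap (log2 0.49, SE 0.07, adjusted p = 6.8e-10). Txnrd1 (0.28, SE 0.07, adjusted p = 0.00025) and Srxn1 (0.27, SE 0.1, adjusted p = 0.013) were also higher in airway. Keap1 was lower there (-0.12, SE 0.05, adjusted p = 0.039), a difference that did not pass under several alternatives (adjusted p from 0.053 to 0.3). Nqo1 in all 10 airway libraries exceeded the parenchyma libraries, yet its adjusted p was 0.087 (log2 0.85, SE 0.44), or 0.011 in edgeR and 0.0055 in DESeq2. At 3 weeks, where 56.1% of all genes differed, Nqo1 (0.7, SE 0.13, adjusted p = 1.2e-05, or 0.09 in a fit of both times together), Gclm (0.5, SE 0.06, adjusted p = 2.5e-09), Srxn1 (0.36) and Txnrd1 (0.16) were higher in airway, 4 of the 10.

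The transcripts of the regulators moved little. Beside the lower Nfe2l2 in airway after 3 weeks of HDM and the lower Keap1 of airway than of parenchyma, neither passed in limma-voom in any comparison of smoke, HDM or DEX. In parenchyma at 3 weeks the Keap1 median was 53.18 CPM with PBS and 60.42 with HDM. For HDM at 3 weeks, DESeq2 passed 9 of the 10 genes in airway and 8 in parenchyma, against 8 and 7 in limma-voom. Group medians of Nfe2l2 lay between 172.2 and 228.4 CPM over all 20 groups and those of Keap1 between 52.77 and 60.42. Over the 8 smoke comparisons the log2 differences ran from -0.06 to 0.14 for Nfe2l2 and from -0.1 to 0.03 for Keap1. With an SE of 0.08 for Nfe2l2 and 0.05 for Keap1, the 95% intervals in PBS mice without DEX reached no further than -0.21 to 0.2 and -0.1 to 0.1.

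Within the smoke groups the libraries differed widely, and Nqo1 varied in step with Cyp1a1. The library codes can be cut into 10 runs of 20 consecutive numbers, each with 1 library of every 11-week group, though the labels do not call these runs batches. Airway and parenchyma libraries of an exposure in a run may come from the same mouse, so the tissues may not be independent. In the airway of PBS mice with smoke, Nqo1 was 101.5, 156.1 and 140.8 CPM in runs 7, 8 and 10 and between 12.58 and 46.98 in the other 7, and in parenchyma runs 7, 8 and 10 again had the highest values (42.16, 41.9 and 53.32). Cyp1a1 in the airway of that group was at least 103.4 CPM in these runs and 16.46 to 56.06 in the rest, against 2.881 to 10.62 in air. Nqo1 was higher with smoke in 10 of 10 runs in all 8 comparisons. In PBS mice without DEX, Slc7a11, Hmox1, Txnrd1 and Srxn1 were higher in 10 of 10 runs in both tissues, and with DEX Hmox1 was higher in 9 of 10 in each. In the parenchyma of HDM mice Hmox1 was lower in 10 of 10 runs and Slc7a11 in 9 without DEX, and each in 6 with DEX. With run as a term, the number of genes that passed for smoke was as without it in all 8 comparisons.

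The 8 smoke groups each have 3 libraries with the most Cyp1a1, 24 in all. Of these, 18 were also among the 3 with the most Nqo1 in their group, and 17 of the 24 libraries with the least Cyp1a1 were among those with the least Nqo1. For Nfe2l2 the shared counts were 16 and 12, for Txnrd1 13 and 12, for Gclc 12 and 14, for Srxn1 11 and 14, for Slc7a11 and Osgin1 11 and 12, for Gclm 11 and 3, for Hmox1 9 and 15, and for Keap1 1 and 5. How many libraries an unrelated gene would share was not worked out, so the lower counts cannot be read as agreement with Cyp1a1. The count of Nfe2l2 also lies near that of Nqo1. All counts were made after the values were seen and describe libraries that share a group, a tissue and a run, with no test of how the genes compare.

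**Figure D5:**
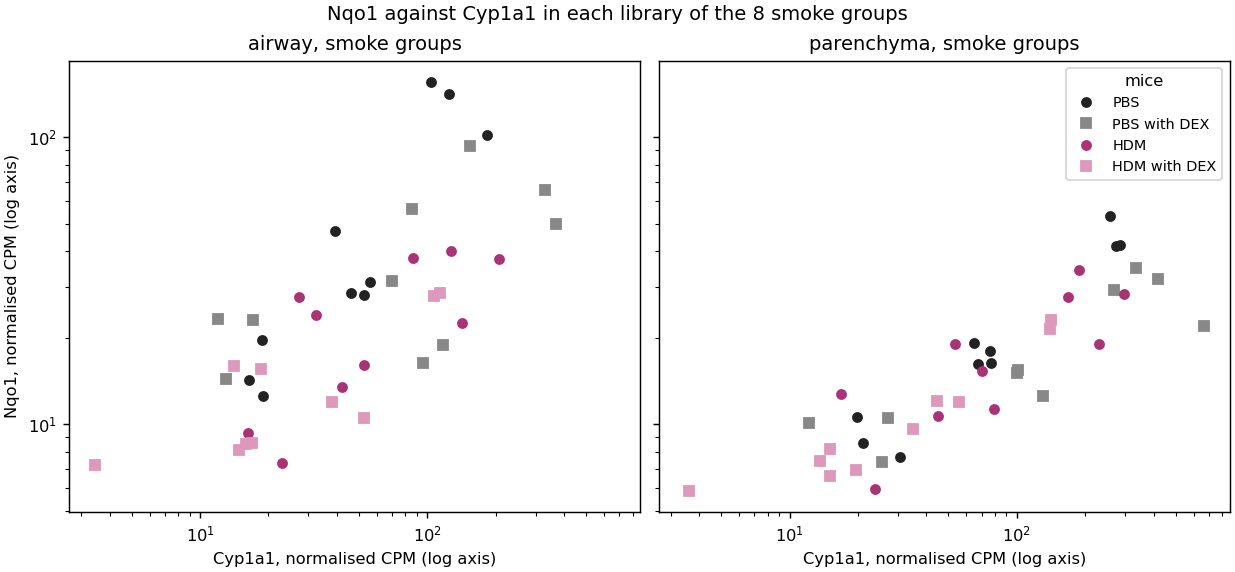
Nqo1 against Cyp1a1 (both normalised CPM on log axes) in every library of the 8 smoke groups, airway on the left and parenchyma on the right, with colours and shapes for PBS and HDM mice with and without DEX. Libraries with more Cyp1a1 tend to have more Nqo1, up to 156.1 CPM of Nqo1 in the airway of a PBS mouse, and libraries of HDM mice with DEX lie lowest, down to 5.838 in parenchyma.

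Smoke raised AHR targets in the same PBS mice, with Cyp1a1 higher by 3.19 in airway (adjusted p = 6.6e-04) and 2.91 in parenchyma, Ahrr by 2.45 and 2.42, Cyp1b1 by 1.3 and 2.42 and Tiparp by 0.22 and 0.21 on the log2 scale. With DEX the smoke and air groups overlapped for Cyp1a1 in both tissues of PBS mice (11.94 to 369.6 and 4.554 to 23.32 CPM in airway) and of HDM mice (3.457 to 113.8 and 2.721 to 34.54), unlike for Nqo1. Nqo1 was the only one of the 10 genes that rose in all 8 smoke comparisons.

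Other genes of the pathway were taken from lists of glutathione, thioredoxin, NADPH, transferase, detoxification, haem, superoxide, amino acid stress and partner genes. In PBS mice their median log2 difference with smoke was 0.13 in airway and 0.24 in parenchyma, against 0.002 and 0.0 over all genes. The counts below, airway before parenchyma, stand beside 7.66% and 17.7% of all genes that rose and 6.03% and 18.2% that fell. Of 6 genes that supply NADPH, 4 rose in airway and 6 in parenchyma, among them Pgd (0.48 and 0.72) and G6pdx (0.42 and 0.55) of the pentose phosphate pathway. Of 9 haem and iron genes, 7 and 8 rose, including the haem carrier Hpx (1.03 and 1.84) and the ferritin chains Ftl1 (0.63 and 0.98) and Fth1 (0.51 and 0.81). The glutathione list had 5 and 6 of 14 higher, led by Ggt1 (2.12 and 1.41), which cleaves extracellular glutathione, and the peroxidase Gpx2 (0.7 and 1.27), and the thioredoxin list 3 and 4 of 13 higher and 1 and 2 lower.

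Detoxification genes rose in 5 of 20 cases in airway and 11 in parenchyma, with 2 and 1 lower. Akr1b8, an aldo-keto reductase, had log2 differences of 1.25 and 1.37, and the glucuronosyltransferases Ugt1a6a and Ugt1a7c 1.07 and 1.54, and 1.36 and 1.14. Aldh3a1, an aldehyde dehydrogenase, had 0.63 (adjusted p = 0.096) and 1.24 (adjusted p = 0.0014). Of 17 glutathione S-transferases, a family whose members share reads, 4 and 7 rose and 2 and 2 fell, Gsta2 among the latter (-0.95 and -1.01). The list of partner and related genes held MAF, BACH and ubiquitin ligase genes beside Nfe2l1, Nfe2, Nfe2l3 and Sqstm1. It moved least, with 1 of 11 lower in airway and 2 higher and 1 lower in parenchyma. In HDM mice, where 6.07% and 10.0% of all genes rose with smoke, it raised 11 and 8 of the 17 transferases in airway and parenchyma and 11 and 8 of the 20 detoxification genes, whereas the NADPH list had medians of 0.1 and 0.03. HDM in air had lowered 15 of the 17 transferases in airway and 7 in parenchyma, where 29.8% and 26.9% of all genes fell, and had raised 3 and 6 of the NADPH genes, where 31.3% and 32.6% rose.

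Over the 80 libraries of a tissue at 11 weeks, the genes most like the mean of the 8 NRF2 targets were, in airway, Pgd (Pearson's r 0.84), Slc39a4 (0.82), Pgm3 (0.78), Cp (0.77) and Akr1b8 (0.77). In parenchyma they were Pgd (0.94), G6pdx (0.92), Tnfrsf23 (0.9), Lasp1 (0.88) and Rgs16 (0.87). The targets themselves followed the mean of the other targets unevenly. In airway and parenchyma r was 0.91 and 0.89 for Txnrd1, 0.82 and 0.85 for Srxn1, 0.67 and 0.65 for Gclc and 0.48 and 0.75 for Slc7a11. It was 0.36 and 0.7 for Hmox1, 0.31 and 0.5 for Osgin1, 0.26 and 0.53 for Gclm and 0.41 and 0.29 for Nqo1. All these values are descriptions over libraries that share groups and depth, and the tissues shared Pgd among their first 5.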

How the data were processed

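RNA was extracted with TRizol from blunt-dissected airway and parenchyma and sequenced as single reads. The values analysed are estimated counts per gene that the authors deposited as 1 table of 43346 identifiers. The submitters' processing notes name bcl2fastq 2.20.0.422, STAR 2.5.1b, RSEM 1.2.31, kallisto 0.44.0 and the mm10 build. Which program made the table is not given in the sources used here, nor is strand. Since 20.3% of values above 0 carried decimals, the table was rounded. Groups were taken from the sample labels.

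The counts were scaled with TMM (edgeR 4.0.16, R 4.3.3) and tested with limma-voom (limma 3.58.1), with 1 mean per group, in a fit of 160 libraries at 11 weeks and another of 43 libraries at 3 weeks. A gene was kept where 9 or more libraries reached the CPM that equals 10 counts at median depth, and p-values were adjusted over all genes tested. Intervals are 95% intervals from the SE. CPM levels use TMM factors over all libraries of both times. A simulation of known fold changes was used to test the scripts.

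The 10 genes and the other gene lists were chosen with earlier results of these data known. The genes named are the 10 members, the pathway genes that passed with a log2 difference of at least 1 in size for smoke in PBS mice in either tissue, the AHR and glucocorticoid genes, and the 5 genes most like the target mean in each tissue. Ftl1 and Fth1 were added after their values were seen. Comparisons were smoke, HDM and DEX within a tissue, tissue within the unexposed groups, and differences of smoke effects. The fit was repeated with DESeq2 (1.42.0), the quasi-likelihood test of edgeR, size factors of DESeq2, a filter at 10 CPM, no filter, all libraries in 1 fit, each tissue in its own fit and sample quality weights. Library code run as a term and the fit without the library of lowest depth were chosen after seeing the data. Total counts of 13003087 to 40240680 set the counting error, which is smallest for the genes of highest count. Figures were drawn with matplotlib 3.10.9 in Python 3.11.15.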

Additional observations from a re-analysis of the deposited data

Results flagged for a closer look

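A library stood apart from the others of its group, by Dixon's criterion, in 7 of 180 combinations of gene and group, where chance gives about 1 in 20. Nfe2l2 was 240.7 CPM in 1 library of airway with HDM at 3 weeks. Keap1 was 48.13 CPM in 1 parenchyma library of PBS mice in air with DEX. Nqo1 was 2.274 CPM in 1 airway library of HDM mice in air, and Hmox1 39.63 in 1 parenchyma library of PBS mice with smoke. Slc7a11 stood apart in 3 groups of PBS mice with DEX: at 7.67 CPM in airway in air, at 7.997 in parenchyma in air and at 11.67 in parenchyma with smoke.

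The smoke effect in HDM mice was below that in PBS mice, by a test of the difference on the log2 scale, for Slc7a11 (-2.3 in airway and -3.45 in parenchyma), Hmox1 (-0.95 and -1.82), Srxn1 (-0.5 and -1.0), Txnrd1 (-0.39 and -0.77) and, in parenchyma, Gclc (-0.67). In the parenchyma of HDM mice the smoke effect was higher with DEX than without for Hmox1 (1.03) and Srxn1 (0.52). The cause of these differences was not tested.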

How the results depend on the processing

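Of 2957 values of the 10 genes recomputed under alternatives, none changed direction among those that had passed, 2876 kept their side of the threshold, 62 moved past it and 19 moved back. Of 296 counts of genes that passed, 270 were within 1.5 times the value reported. The others follow, with the reported count in brackets. Smoke in airway of HDM mice (2) gave 1 with each tissue in its own fit. Smoke in airway of HDM mice with DEX (2) gave 1 with the 10 CPM filter and 1 with separate tissue fits. Smoke in parenchyma of HDM mice with DEX (1) gave 0 with the 10 CPM filter, 2 with separate tissue fits and 2 with quality weights. DEX in airway of PBS mice in air (1) gave 2 with DESeq2, with the 10 CPM filter and with code run as a term. DEX in airway gave 0 with no filter in PBS mice with smoke (1), and 2 with quality weights and with code run in HDM mice with smoke (1). DEX in parenchyma of PBS mice with smoke (0) gave 1 with edgeR, the 10 CPM filter, separate tissue fits and code run, and 2 with DESeq2 and quality weights. DEX in parenchyma of HDM mice in air (3) gave 5 with the 10 CPM filter, with quality weights and without the library of lowest depth. DEX in parenchyma of HDM mice with smoke (0) gave 1 with separate tissue fits, quality weights and code run. The DEX difference of the smoke effect in parenchyma of PBS mice (0) and the tissue difference of the smoke effect in PBS mice (0) each gave 1 with quality weights. The cause was not tested in any of these. Differences between tissues cannot be had with each tissue in its own fit. The labels give the groups no shared replicate numbers. With code run as a block, 291 of the gene values kept their side of the threshold and 9 moved past it. Counting error, relative to the level, is larger for genes of low CPM, such as Nqo1 in air.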
